A study of Mus musculus with 249 samples.

Results

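Brain RNA of F2 mice was compared between animals with a low and animals with a high measured level of Lrp6, a gene near the distal end of chromosome 6. The animals were chosen on the array value of Lrp6 itself, the log10 ratio of animal to reference pool averaged over its probes. Values under -0.12 made the low group of 73 animals, values over 0.085 the high group of 58, and the 117 animals between them a middle group used as a check of dose. The low and high groups together were 131 of the 249 animals in the series, and 1 animal, number 144, was left out. All groups came from the same cross of C57BL/6J with C3H/HeJ, all carried the ApoE null background of both parents, and all ate the high-fat Western diet from week 8 to week 24 of life. No untreated animals and no animals with ApoE were among the groups. The labels name female and male mice but give neither sex nor genotype for an animal, so the groups below are groups by a measured transcript and not by an allele.

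Lrp6 encodes a single-pass membrane protein that acts with Frizzled receptors as a co-receptor for Wnt ligands. When a Wnt ligand joins Frizzled and Lrp6, the complex of Axin, APC and glycogen synthase kinase 3 stops marking beta-catenin for destruction, and beta-catenin enters the nucleus to act with TCF factors. Lrp5 is its closest relative, and Dickkopf proteins bind the co-receptors and block them. In the brain this pathway is known for its part in patterning, in the blood-brain barrier and at synapses. In an F2 cross, neighbouring genes on a chromosome tend to be inherited together, so animals that share an allele at 1 gene mostly share it at the genes around it.

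Each animal had 1 array with the animal's RNA in Cy3 and the pool in Cy5. The arrays gave 11485 genes, 615 of them on chromosome 6 with Lrp6 included, 10253 on other chromosomes and 617 that could not be placed. The spread of an array, its SD over probes, ran from 0.0585 to 0.258 (log10) in the 248 animals used, and was 0.392 in animal 144, where Snap25, a neuronal synaptic gene, lay at -1.99 and Sftpc, a lung gene, at 1.24. The 12 used arrays with the widest spread over genes comprised 5 of low, 6 of middle and 1 of high animals. The number of arrays limits the precision, and there are no repeat arrays of an animal.

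The array carried 2 probes for Lrp6, and they did not move together. The probe designed to the RefSeq mRNA, called the RefSeq probe here, had a mean of 0.0184 ± 0.0351 (SD, n = 73) in low, -0.000894 ± 0.0542 (SD, n = 117) in middle and 0.00875 ± 0.0268 (SD, n = 58) in high animals. The probe designed to another deposited mRNA sequence, called the GenBank probe here, ran from -0.732 to -0.239 with a median of -0.530 in low animals. In middle animals it ran from -0.258 to 0.429 with a median of 0.0368, and in high animals from 0.125 to 0.438 with a median of 0.288. Its mean was -0.527 ± 0.0727 (SD, n = 73) in low and 0.283 ± 0.0635 (SD, n = 58) in high animals, a 6.46-fold range, against 1.02-fold in the other direction for the RefSeq probe. The Pearson r between the probes over the 248 animals was -0.213, a description with the array shared. The grouping was therefore set by the GenBank probe, and what part of the Lrp6 transcript each probe reads is not given in the sources used here.

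**Figure D1:**
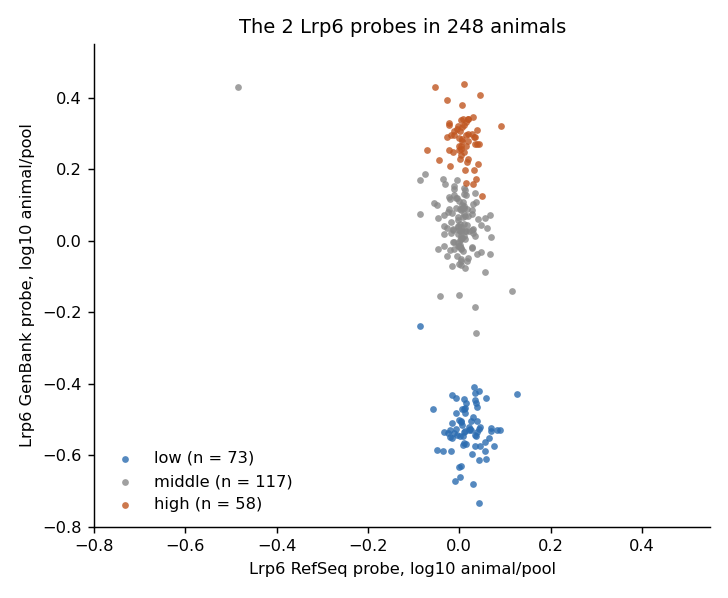
Each point is 1 of 248 animals, with the Lrp6 RefSeq probe on the x axis and the Lrp6 GenBank probe on the y axis, both as log10 animal over pool, coloured by group. The groups are stacked along the GenBank probe, with means of -0.527 in low and 0.283 in high animals, and overlap along the RefSeq probe. The 1 middle animal at the upper left had -0.484 on the RefSeq probe and 0.429 on the GenBank probe.

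The mean of both probes, which chose the animals, is given as a description with no test. In low animals it ran from -0.345 to -0.1505 with a median of -0.253, in middle animals from -0.110 to 0.0840 with a median of 0.0207, and in high animals from 0.0873 to 0.227 with a median of 0.148. The means of high and low animals differed by 0.400 log10 units, or 2.51-fold, and the middle group lay 68.1% of the way from low to high. At the low limit there was a gap, since the nearest animals inside and outside were at -0.1505 and -0.110 and 1 animal lay within 0.02 of the limit. The high limit passed through a continuous run of animals, with 0.0873 just inside, 0.0840 just outside and 20 animals within 0.02. Groups of the same sizes cut on the GenBank probe alone kept 72 low, 113 middle and 55 high animals in their groups and moved 8 animals.

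Among genes with a symbol, the largest differences that passed the test between high and low animals were in genes of chromosome 6. Of 614 genes on chromosome 6 other than Lrp6, 80 passed the test (13.0%), 34 higher and 46 lower in high animals. On the other chromosomes 268 of 10253 passed (2.61%), and over all 11484 genes 360 passed (3.13%), 208 of them higher (1.81%) and 152 lower (1.32%) in high animals. The count on other chromosomes fell to between 78 and 95 when animal 14, 178 or 257 was left out. A gene passed when its difference, high minus low in log10 units, had a Benjamini-Hochberg adjusted p under 0.05 over all genes in limma. Differences over 0.1, or 1.26-fold, were found for 14 of the 80 genes on chromosome 6 and for 4 of the 268 elsewhere. The median absolute difference of the genes that passed was 0.0497 (1.12-fold) on chromosome 6 and 0.0387 (1.09-fold) on other chromosomes. Among the other autosomes and X, none had more than 4.11% of its genes passing, the share on chromosome 14, and the lowest share was 0.814% on chromosome 9. In the 12 fits that each left out 1 of the arrays of widest spread, the count on chromosome 6 ran from 63 to 88. With groups of the same sizes cut on the RefSeq probe instead, 43 of 614 genes of chromosome 6 passed, beside 504 of 10253 on other chromosomes. Of the 43, 7 were among the 80, 1 with the same and 6 with the opposite direction. Of the 51 genes named here that had passed, 41 took the opposite sign in those groups, but 35 of the 41 did not pass there.

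Along chromosome 6 the genes that passed were spread over most of the gene order, with the densest stretch just beyond Lrp6. Positions are counted in measured genes from Lrp6, negative towards the start of the reference order, with 553 measured genes before Lrp6 and 61 after it. In the first 20 genes after Lrp6, 11 passed (55.0%), and in the 20 before it 1 passed. From place -50 to -21 the count was 8 of 30 (26.7%), from 21 to 61 it was 9 of 41 (22.0%), and from -200 to -101 it was 18 of 100 (18.0%). The stretch from -100 to -51 had 4 of 50 (8.00%), and from -300 to -201 there were 8 of 100 (8.00%). From -400 to -301 the count was 14 of 100 (14.0%), while the 153 genes farther from Lrp6 had 7 (4.58%). The differences had no common sign along the chromosome: of the 11 just beyond Lrp6, 6 were higher and 5 lower in high animals.

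**Figure D2:**
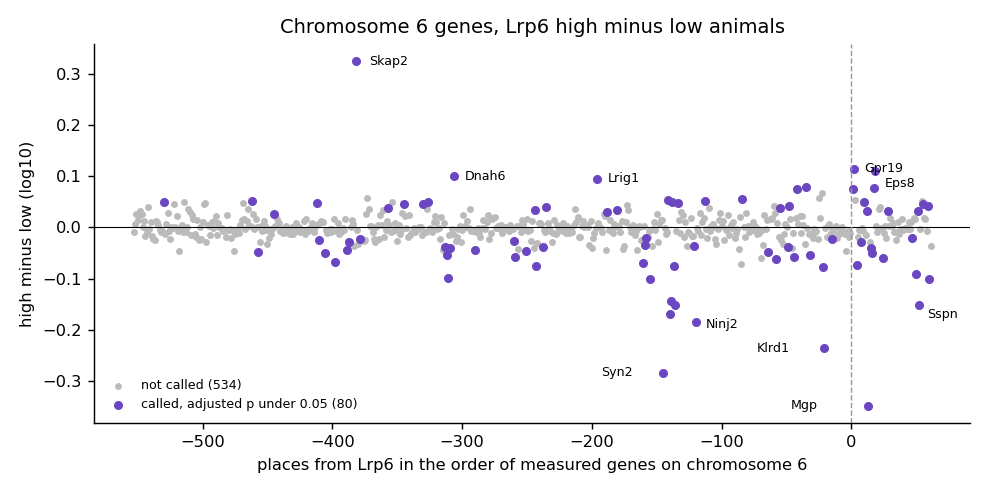
Each point is 1 of 614 genes of chromosome 6, with its place from Lrp6 in gene order on the x axis and its high minus low difference (log10) on the y axis. Purple marks the 80 genes with an adjusted p under 0.05, and the dashed line is Lrp6. Mgp at -0.347 lies just beyond Lrp6, while Syn2, Ninj2 and other genes of lower value lie near place -140 and Skap2 stands alone at 0.324.

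Among named genes the largest difference was in Mgp, matrix Gla protein, a secreted protein that inhibits calcification of vessel walls and cartilage. Mgp lay at place 13 beyond Lrp6. Its values ran from -0.202 to 0.0886 with a median of -0.0430 in low animals, from -0.476 to 0.122 with a median of -0.169 in middle animals, and from -0.610 to -0.103 with a median of -0.406 in high animals. High and low animals overlapped little, since 52 of 58 high animals lay below every low animal. The difference was -0.347 ± 0.0162 (SE), 2.23-fold lower in high animals, with an adjusted p of 1.61e-54 in limma. Ggcx, the vitamin K-dependent carboxylase that modifies Gla proteins, lay at place -311 and was also lower, at -0.0994 ± 0.0138 (SE).

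Several of the larger differences lay near place -140. From place -200 to -101, 11 of the 18 genes that passed were lower and 7 higher in high animals, and the higher ones near place -140, Cand2 at 0.0529, H1f8 at 0.0501 and Cxcl12 at 0.0481, were named after their values were seen. Syn2, synapsin II of synaptic vesicles, ran from -0.321 to 0.330 with a median of 0.0640 in low animals and from -0.432 to 0.111 with a median of -0.252 in high animals, and the groups overlapped. Its difference was -0.283 ± 0.0253 (SE), 1.92-fold, with an adjusted p of 1.92e-20 in limma. Efcab12, which encodes a protein with EF-hand calcium-binding motifs, differed by -0.168, Mbd4, a DNA glycosylase that removes thymine from mismatches, by -0.144, and Tmcc1, a membrane protein of the endoplasmic reticulum, by -0.1503. The 2 probes of Tmcc1 disagreed, one giving 0.0123 and the other -0.313, so its value rests on 1 probe. Ninj2, an adhesion molecule induced in injured nerve, lay at place -120 and had a median of 0.0944 in low, 0.00233 in middle and -0.129 in high animals. All 58 high animals lay below the median of the low animals, and the difference was -0.185 ± 0.0150 (SE), 1.53-fold. Il17re, a receptor of the interleukin 17 family, lay at place -155 and differed by -0.101 ± 0.0132 (SE).

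Closer to Lrp6, Klrd1, the CD94 chain of natural killer cell receptors, lay at place -21. It ran from -0.864 to 0.232 with a median of -0.263 in low animals and from -0.736 to -0.126 with a median of -0.492 in high animals. The ranges overlapped, with no high animal below every low animal, but 56 of 58 high animals lay below the low median. The difference was -0.236 ± 0.0232 (SE), 1.72-fold, with an adjusted p of 1.99e-17 in limma. Beyond Lrp6, Sspn, sarcospan of the dystrophin complex, lay at place 52 and differed by -0.1502 ± 0.0168 (SE). Ipo8, a nuclear import receptor, lay at place 60 and differed by -0.100 ± 0.0134 (SE). Among genes named after their values were seen, Rassf8 at place 50 differed by -0.0915 and Akap3, an anchor of protein kinase A in sperm, at place -49 by -0.0388.

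Of the 14 differences over 0.1 on chromosome 6, 10 were opposite to the direction of Lrp6 and 4 had its direction. Gpr19, an orphan G protein-coupled receptor, lay at place 2 and had medians of -0.0260 in low, 0.0332 in middle and 0.0863 in high animals. Its lowest and highest values were -0.233 and 0.132 in low and -0.0613 and 0.146 in high animals, so the ranges overlapped, with 56 of 58 high animals above the low median. The difference was 0.115 ± 0.00756 (SE), 1.30-fold, with an adjusted p of 1.32e-33 in limma. Eps8, a substrate of the epidermal growth factor receptor that caps actin filaments, lay at place 18 and differed by 0.111 ± 0.0126 (SE). Dnah6, an axonemal dynein heavy chain, lay at place -306 and differed by 0.1001 ± 0.00963 (SE), with probe values of 0.183, 0.106 and 0.0106. Lrig1, a negative regulator of ErbB receptors at place -196, and Ptpro, a receptor tyrosine phosphatase at place 17, were named after their values were seen and differed by 0.0947 and 0.0780.

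Skap2, an adaptor of Src-family kinase signalling, had the largest positive difference among genes with a symbol that passed. It differed by 0.324 ± 0.0853 (SE), 2.11-fold, with an adjusted p of 0.0173 in limma, and lay far from Lrp6 at place -382. Its values fell into separate levels in every group, from -0.874 to 0.672 in low and from -0.664 to 0.723 in high animals, with near medians of -0.593 and -0.544. Values above 0 were found in 13 of 73 low animals (17.8%), 41 of 117 middle animals (35.0%) and 25 of 58 high animals (43.1%). Among animals with higher numbers alone its difference was 0.118 and did not pass.

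**Figure D3:**
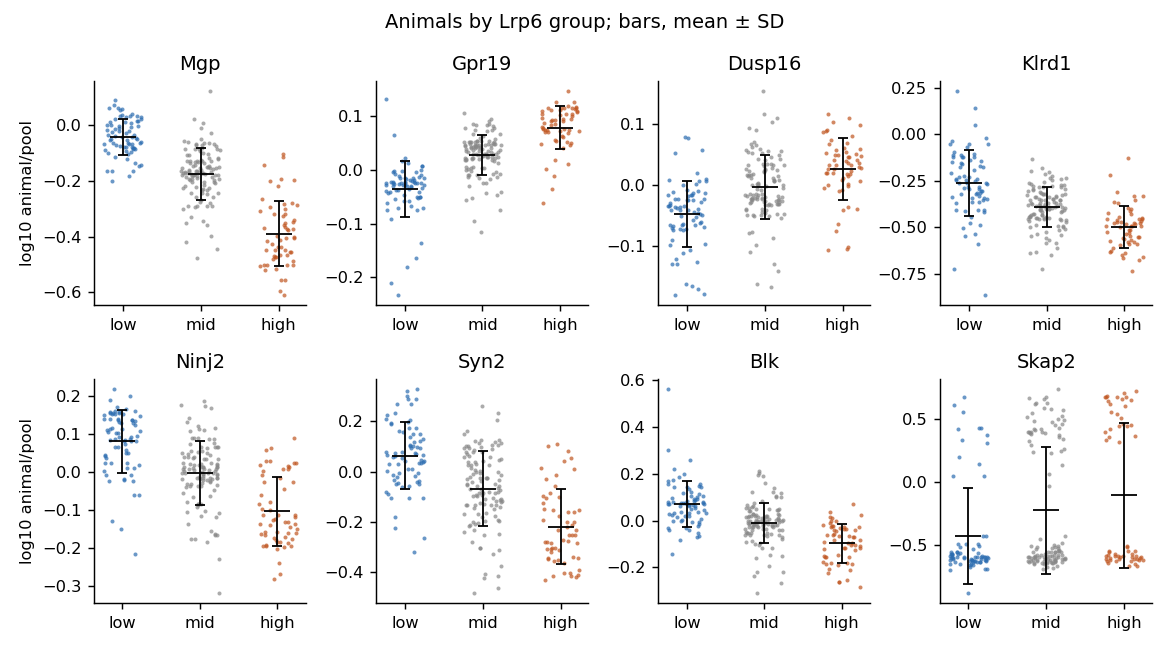
Each panel shows 1 gene, with a point per animal (log10 animal over pool) in the low (n = 73), middle (n = 117) and high (n = 58) groups and black bars for mean ± SD. Mgp falls from a mean of -0.0418 in low to -0.389 in high animals with little overlap, Gpr19 and Dusp16 rise in overlapping ranges, Blk of chromosome 14 falls, and Skap2 is split into 2 levels in every group.

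The 10 nearest measured genes on each side of Lrp6 were examined gene by gene. Of the 10 before it 0 passed in limma, with 1 at an unadjusted p under 0.05, and of the 10 after it 5 passed, so 5 of 20 passed against 13.0% over the chromosome. At the adjacent place, 1, Dusp16, a phosphatase that inactivates the JNK and p38 MAP kinases, had medians of -0.0406 in low, -0.00800 in middle and 0.0328 in high animals and differed by 0.0747 ± 0.00929 (SE). Next was Gpr19, described above. At place 4, Gprc5a, a retinoic acid-inducible receptor, differed by -0.0731 ± 0.0143 (SE) with an adjusted p of 0.000187 in limma. Its level was far below the pool in every group, with medians of -0.870 in low, -0.905 in middle and -0.945 in high animals. Gsg1, a germ cell-associated gene at place 7, differed by -0.0288 and Atf7ip, a chromatin cofactor at place 10, by 0.0489. Gprc5a, Gsg1 and Atf7ip did not pass among animals with higher numbers alone, where 28 of 614 genes of chromosome 6 passed. They differed there by -0.0684, -0.0212 and 0.0422. The 15 neighbours that did not pass had differences from -0.0467 to 0.0529. These extremes were Gm5154 at place -4 (adjusted p = 0.0512) and Cdkn1b, the cell cycle inhibitor p27, at place 3 (adjusted p = 0.173), both in limma. Grin2b, an NMDA receptor subunit at place 9, differed by -0.00647, with a 95% interval from -0.0281 to 0.0152. Before Lrp6, Ybx3 differed by -0.000484, the kidney gene Kap by -0.00991, the salivary gene Prh1 by -0.00677 and the bitter taste receptor Tas2r105 by 0.00150. A further 3 of these, Klra2, a receptor of the natural killer cell Ly49 family, Prpmp5 and 5430401F13Rik, differed by -0.0128, -0.0119 and -0.00981.

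The genes whose values followed Lrp6 most closely over all 248 animals were Mgp (Pearson r = -0.752), Gpr19 (r = 0.689), Ninj2 (r = -0.577), Efcab12 (r = -0.544) and Klrd1 (r = -0.536). All 5 are on chromosome 6. The values share an array for each animal, and the correlations are a description.

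The middle group lay between the low and the high group for all 80 genes of chromosome 6 that passed, and likewise for all 268 on other chromosomes. These genes were chosen for their difference between low and high animals in the same fit, which makes a middle mean in between likely. Those counts therefore cannot serve as a check of dose. On chromosome 6 the mean of the middle group was at a median of 48.6% of the way from low to high, with a range of 12.5% to 83.3%. For the 14 genes with differences over 0.1 the median was 51.0% and the range 38.0% to 63.0%. Lrp6 itself was at 68.1%. At the lower end of the range of the 14 was Mgp at 38.0%. The contrast of its middle mean with the midpoint of low and high did not pass (unadjusted p = 0.000455 in limma). Across all genes the contrast of the middle mean with the midpoint passed for 0 genes in limma, with 351 of 11484 (3.06%) at an unadjusted p under 0.05 and a lowest adjusted p of 0.999. Gpr19 was at 55.7%, Syn2 at 46.7%, Klrd1 at 54.9% and Ninj2 at 45.4%. On the other chromosomes the median position of the genes that passed was 39.1%.

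The animals were split at the middle of their numbers into 124 with lower and 124 with higher numbers, and the comparison was made within each set. The lower-numbered set held 34 low and 33 high animals, and 9.18% of all genes passed there. The higher-numbered set held 39 low and 25 high animals, and 0.296% passed. On chromosome 6, 109 genes passed in the lower-numbered set and 28 in the higher-numbered set. Of the 109, 100 had the same direction in the other set, and 25 passed in both. On other chromosomes 902 genes passed in the lower-numbered set, 678 of which (75.2%) had the same direction in the other set, and 4 passed in the higher-numbered set. Those 4 passed in both sets. Mgp differed by -0.352 and -0.340, Gpr19 by 0.112 and 0.117, Syn2 by -0.284 and -0.287, and Ninj2 by -0.191 and -0.184 in the lower- and higher-numbered animals. The difference between the sets was not tested.

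**Figure D4:**
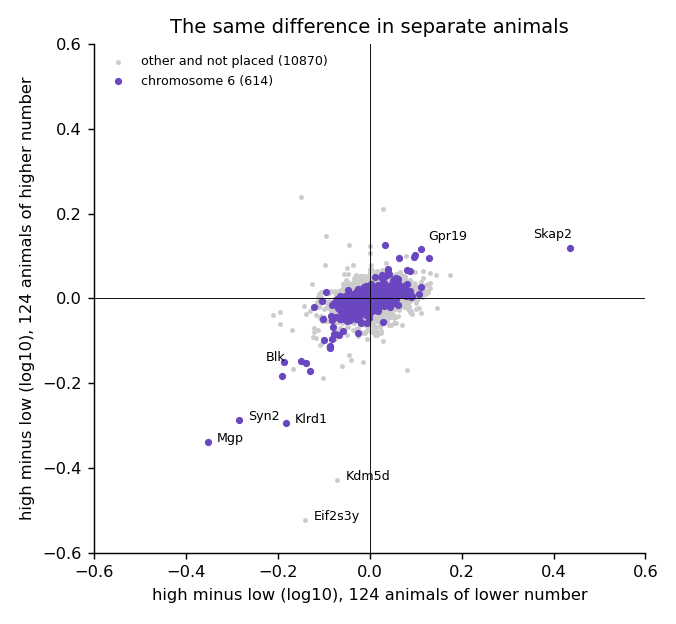
Each point is 1 gene, with its high minus low difference (log10) in the 124 animals of lower number on the x axis and in the 124 of higher number on the y axis. Purple marks the 614 genes of chromosome 6 and grey the others. Mgp, Syn2 and Klrd1 lie in the lower left in both sets, whereas Skap2 is at 0.435 in lower-numbered and 0.118 in higher-numbered animals.

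Away from chromosome 6, 4 genes passed in both sets of animals and under each of 12 other settings of the processing that kept the GenBank probe in the grouping. Blk, a Src-family kinase of B lymphocytes on chromosome 14, ran from -0.144 to 0.561 with a median of 0.0688 in low animals and from -0.281 to 0.0690 with a median of -0.0881 in high animals. The ranges overlapped, with 18 of 58 high animals below every low animal, and the difference was -0.168 ± 0.0156 (SE), 1.47-fold, with an adjusted p of 3.59e-19 in limma. Kcnk5, a potassium channel subunit on chromosome 14, had medians of -0.0430 in low and 0.0538 in high animals, and all 58 high animals lay above the low median. It differed by 0.0881 ± 0.00842 (SE). Rnps1, a splicing cofactor on chromosome 17, differed by -0.0994, but its 2 probes gave 0.0107 and -0.210. Rph3al, an effector of Rab proteins in secretion on chromosome 11, differed by 0.0340 ± 0.00576 (SE).

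The count of 268 genes on other chromosomes, 170 higher and 98 lower in high animals, rested on few arrays, and its split by direction moved with some settings. It was 82 without animal 14 (46 higher and 36 lower), 95 without animal 178 (59 higher and 36 lower) and 78 without animal 257, all of them low animals with arrays of wide spread. It was 54 without all 12 arrays of widest spread (26 higher and 28 lower), 88 with animal 144 kept in and 60 with groups from the GenBank probe alone (29 higher and 31 lower), under which animal 257 falls in the middle group. Its range over the other 9 single arrays was 258 to 336. The other genes over 0.1, chosen after their values were seen, were Plin4, a lipid droplet protein, at -0.149 on chromosome 17, Irx3, a homeobox factor, at -0.128 on chromosome 8 and Nsg1, a neuronal endosome protein, at 0.114 on chromosome 5. Their adjusted p in limma were 0.00585, 0.0485 and 0.0261. They passed under 12, 7 and 10 of the 14 other settings that kept the GenBank probe in the grouping. Gtf2h1, a subunit of transcription factor TFIIH on chromosome 7, differed by -0.0910, Coq10b, of the coenzyme Q system on chromosome 1, by 0.0747, and Utrn, utrophin on chromosome 10, by 0.0547. Cpm, a membrane carboxypeptidase on chromosome 10, differed by -0.0488, Rfx4, a ciliary transcription factor on chromosome 10, by 0.0462, Cmtm3 on chromosome 8 by -0.0286 and Rims4, of the presynaptic RIM family on chromosome 2, by -0.0262. None of these 10 genes, from Plin4 on, passed in the higher-numbered animals alone, where 4 of 10253 genes on other chromosomes passed. In that set Gtf2h1 differed by -0.0739, Coq10b by 0.0677, Utrn by 0.0492 and Cpm by -0.0509. Rfx4 differed there by 0.0343, Cmtm3 by -0.0329 and Rims4 by -0.0321.

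Of the 617 genes that could not be placed, 12 passed (1.94%), 4 higher and 8 lower, and 5 passed without the 12 arrays of widest spread. Their symbols are in the capitals of another species. The 3 with the lowest p, MARCH8 at -0.0640, PTCD3 at -0.0870 and CPNE9 at -0.0525, and also HOXA3 at -0.0199, share their letters with a symbol or synonym of a mouse gene on chromosome 6. The other 8, such as RPS4X at -0.0824, share them with genes of other chromosomes. HOXA3 was named after its value was seen. Of the 9561 probes that carry no gene symbol, 310 passed the same test probe by probe (3.24%).

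Among Wnt pathway genes few passed, at about the share of all genes. Of 152 genes listed, 109 were measured and 4 passed (3.67%, against 3.13% of all genes), 2 higher and 2 lower in high animals. The median difference was -0.000794 over the 109 genes and -0.000459 over all genes, and 24 of the 109 had an unadjusted p under 0.05, as did 20.5% of all genes tested. Without animal 14, without animal 178 or without animal 257 the count was 1. In those fits the count on other chromosomes fell as well, from 268 of 10253 to 82, 95 and 78. Differences of all 109 lay between -0.0578 and 0.0502, or within 1.14-fold.

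By role, counts that passed are to be read against 3.13% of all genes, and counts at an unadjusted p under 0.05 against that 20.5%. Of 17 Wnt ligands none passed in limma, with 5 at an unadjusted p under 0.05. The largest difference among them was in Wnt8b at -0.0286 ± 0.00987 (SE; adjusted p = 0.0749 in limma). None of 16 receptors and co-receptors passed in limma, with 3 at an unadjusted p under 0.05. Lrp5, the closest relative of Lrp6, had medians of 0.00489 in low and 0.00432 in high animals and differed by -0.00649, with a 95% interval from -0.0171 to 0.00411. Adgra2, a co-activator of Wnt7 signalling in brain vessels, was the farthest receptor at -0.0455 with a wide interval from -0.105 to 0.0145. None of 13 extracellular inhibitors passed in limma, with 2 at an unadjusted p under 0.05. Dkk1, which binds Lrp6, differed by 0.00383 ± 0.00464 (SE), Sostdc1 by 0.0426 ± 0.0197 (SE) and Sfrp1 by -0.0274 ± 0.0363 (SE; adjusted p = 0.728 in limma). Of 6 genes of secretion and R-spondin signalling none passed in limma and 1 had an unadjusted p under 0.05, Rspo1, the farthest at -0.0257.

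Inside the cell 2 of 21 genes passed (9.52%), and this share and those below are to be read against 3.13% of all genes. Btrc, the F-box protein that brings beta-catenin to degradation, differed by 0.0351 ± 0.0109 (SE; adjusted p = 0.0478 in limma), and Dact1, a Dishevelled-binding regulator, by 0.0502 ± 0.0150 (SE; adjusted p = 0.0397). Ctnnb1, beta-catenin, was at 0.0460 ± 0.0160 (SE; adjusted p = 0.0783 in limma). None of 10 genes of the TCF complex passed in limma, with 4 at an unadjusted p under 0.05 and Tle5, a member of the Groucho family of corepressors, farthest at -0.0359. Of 15 target genes 1 passed (6.67%), Ccnd2, the G1 cyclin D2, at -0.0578 ± 0.0115 (SE; adjusted p = 0.00028 in limma). Ccnd2 is itself on chromosome 6 at place -44. Axin2, the feedback target most used to read the pathway, differed by -0.0104 ± 0.0126 (SE; adjusted p = 0.693). Of 11 planar polarity genes 1 passed (9.09%), Daam1, a formin bound by Dishevelled, at -0.0350, with probe values of -0.0736, -0.00919 and -0.0222. The other 5 Wnt genes on chromosome 6 did not pass: Wnt5b differed by -0.0102, Wnt7a by 0.0128, Tcf7l1 by -0.00361, Prickle2 by -0.0206 and Caprin2, at place 61, by -0.0354.

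**Figure D5:**
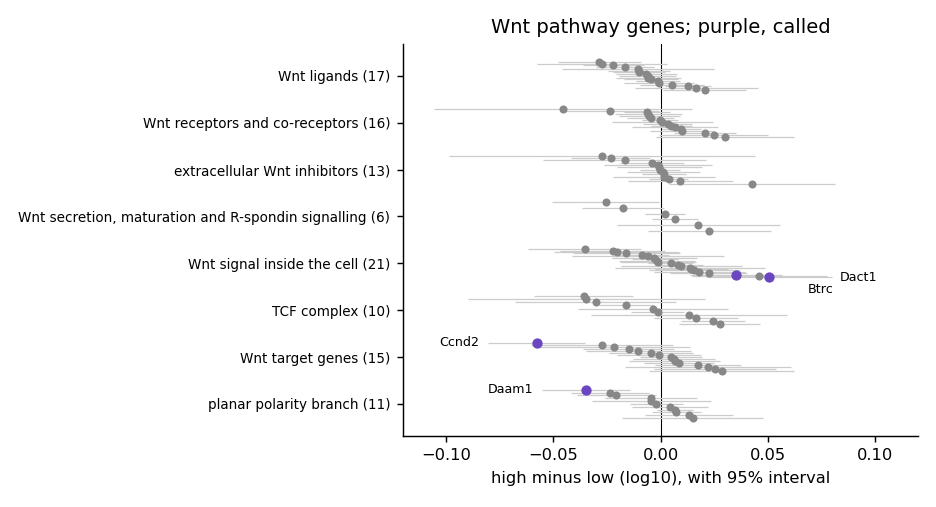
Each point is 1 of 109 Wnt pathway genes, with its high minus low difference (log10) and 95% interval on the x axis, in rows by role with the number measured in brackets. The 4 genes that passed are purple: Dact1 and Btrc are higher, and Ccnd2 and Daam1 lower in high animals, with all points between -0.0578 and 0.0502.

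Markers passed in 2 of the lists of cell types, to be read against the 3.13% of all genes that passed. Of 6 neuronal markers 2 passed (33.3%), both of inhibitory neurons and in opposite directions: Gad1 at 0.0603 (adjusted p = 0.0285) and Gad2 at -0.0557 (adjusted p = 0.0326), both by limma. The 2 probes of Gad1 gave 0.0852 and 0.0354, with adjusted p of 0.0454 and 0.0803 in limma probe by probe. The mean over the 6 ran from -0.330 to 0.0705 in low and from -0.113 to 0.0719 in high animals. Of 10 markers of endothelium and pericytes 2 passed, Tek, the angiopoietin receptor, at 0.0369 and Slco1c1, a thyroid hormone transporter of brain vessels that lies on chromosome 6 at place 28, at 0.0329. Their list mean ran from -0.126 to 0.0386 in low and from -0.115 to 0.0520 in high animals. Gad1 and Gad2 each passed under 8 of the 14 other settings that kept the GenBank probe in the grouping. Tek and Slco1c1 each passed under 9 of the 14. Not one of these markers passed in the higher-numbered animals alone, where 0.296% of all genes passed. There Gad1 differed by 0.0137, Gad2 by -0.0514, Tek by 0.0434 and Slco1c1 by 0.0253. None passed among 7 markers of astrocytes, 7 of oligodendrocytes, 7 of their precursors, 7 of microglia, 6 of choroid plexus, 7 of meninges, 6 of anterior pituitary, 6 of cerebellum, 6 of olfactory bulb, 7 of blood cells or 6 of lung. Of these 72 markers 9 had an unadjusted p under 0.05 in limma, against 20.5% of all genes. The part of cell composition in the differences was not tested, and in whole brain fewer cells of a type and less RNA per cell cannot be told apart.

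The Y-linked transcript Eif2s3y was above -0.5 in 40 of 73 low, 58 of 117 middle and 23 of 58 high animals. It differed by -0.317 ± 0.165 (SE; adjusted p = 0.259) and Kdm5d, also Y-linked, by -0.235 (adjusted p = 0.323), both in limma. Its part in the results was not tested. Other genes of wide spread did not pass: Pttg1, securin, differed by -0.146 ± 0.0867 (SE), Ccr6, a chemokine receptor, by -0.0841, Best1, a chloride channel, by 0.0397, Prdm16, a zinc finger regulator, by -0.0354, Ccnb1ip1, a meiotic ubiquitin ligase, by 0.0325, Gbp2b, a guanylate-binding protein, by -0.0283 and Lrrc6, a dynein assembly factor, by 0.000508. Apoe, whose null allele all animals carry, differed by -0.00491 ± 0.00703 (SE).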

How the data were processed

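Values were the deposited log10 ratios of animal (Cy3) to pool (Cy5), 1 per probe and array. The colours are fixed per the labels, and the scanner, normalization and genome build were not found in the labels or headers. Centring of the arrays (medians -0.00627 to 0.0250) and bounding of values at -2 and 2 were inferred from the values alone. Direction and base were read from Y-linked Eif2s3y, whose upper level of 0.319 lay near the log10 of 2 (0.301). Of 30876 array pairs 6 correlated under -0.3 (median r 0.313, lowest -0.344). Missing values (0.710%) took the probe's mean. Where a title and a source name disagreed on an animal's number (1 sample), the latter decided.

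A gene was the mean of the probes with that single symbol and with values on 90% of arrays or more. Of 23388 probes 13645 had 1 symbol, 48 several and 9695 none, and 13444 were used. GRCm38.p6 gave current symbols and gene order only, and 12653 probes matched by Entrez ID, 214 by symbol, 93 by synonym, 4 by accession and 681 not at all. limma 3.58.1 (R 4.3.3; lmFit, eBayes) fitted the 3 groups together and was tested on simulated data. Alternatives were probe filter, median over probes, scaling, animal 144, wide arrays, fewer groups, sets by number, eBayes settings, 5 principal components, other Lrp6 groupings and a slope. Leaving out single wide arrays was chosen after seeing the data.

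The animals, gene lists and named genes were chosen with earlier results of these data known. Named by rule were Lrp6, the 15 largest differences that passed on chromosome 6, 10 neighbours on each side, the 15 lowest p elsewhere, Wnt and marker genes that passed, the largest of each Wnt list, the 5 genes of highest |r| and 10 genes of wide spread. Dkk1, Ctnnb1, Axin2, Lrp5, the Y-linked pair and Wnt genes of chromosome 6 were added after values were seen. So were genes that passed under all alternatives but the grouping on the RefSeq probe.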

Additional observations from a re-analysis of the deposited data

Results flagged for a closer look

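Probes with no gene symbol enter none of the gene counts of the report, and 310 of 9561 of them (3.24%) passed the same test between low and high animals, 18 with a difference over 0.1. The 5 with the lowest p differed by 0.385 ± 0.0187 (SE), -0.256 ± 0.0127 (SE), -0.252 ± 0.0145 (SE), 0.114 ± 0.00659 (SE) and -0.138 ± 0.00915 (SE), with a lowest adjusted p of 9.62e-52 in limma. The first of these, 2.43-fold, is larger than the difference of Mgp. The genes these probes read are not named here.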

How the results depend on the processing

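The count on chromosome 6 (80) stayed within 1.5 times under every alternative but higher-numbered animals (28), the slope (151) and groups from the RefSeq probe (43). The count on other chromosomes (268) became 88 with animal 144, 54 without 12 wide arrays, 126 with low and high animals only, 902 in lower- and 4 in higher-numbered animals, 34 with 5 principal components, 106 with a stricter limit, 504 by the RefSeq and 60 by the GenBank probe, and 1452 by slope. Genes not placed (12) gave 5 without wide arrays, 43 and 2 in lower- and higher-numbered animals, 6 with principal components, 25 and 6 by the RefSeq and GenBank probes and 70 by slope. Wnt genes (4) gave 7 when scaled, 1 with animal 144 or with low and high animals only, 2 without wide arrays, with principal components, with a stricter limit or by the GenBank probe, 10 and 0 in lower- and higher-numbered animals, and 21 by slope. The Wnt counts are to be read against those on other chromosomes in the same settings, given above and 314 when scaled. In the higher-numbered animals 0 Wnt genes passed in limma, with 2 at an unadjusted p under 0.05. Leaving out 1 wide array at a time gave 63 to 88 on chromosome 6, 78 to 336 elsewhere and 1 to 6 Wnt genes. The middle position stayed at 47.3% to 49.2% over the 3 alternatives run for it. Of 51 named genes that passed, 30 did so in higher-numbered and 48 in lower-numbered animals. With groups from the RefSeq probe 41 of them had the opposite sign, 6 of these past the test (Syn2, Mbd4, Atf7ip, Cpm, Akap3 and Pcyox1) and 35 not. The differences of all 41 in those groups were: Mgp (0.0485), Skap2 (-0.194), Syn2 (0.111), Klrd1 (0.0427), Ninj2 (0.0208), Tmcc1 (0.0400), Sspn (0.0395), Mbd4 (0.0607), Gpr19 (-0.0279), Il17re (0.0287), Ipo8 (0.0339), Dnah6 (-0.00844), Ggcx (0.0132), Dusp16 (-0.0186), Gprc5a (0.000378), Gsg1 (0.00513), Atf7ip (-0.0428), Blk (0.0299), Kcnk5 (-0.0144), MARCH8 (0.00441), PTCD3 (0.0269), Rnps1 (0.00632), Rph3al (-0.000853), Gtf2h1 (0.0223), Coq10b (-0.0236), Cmtm3 (0.0135), RPS4X (0.0198), Cpm (0.0375), Rims4 (0.00921), Utrn (-0.0113), Gad2 (0.0332), Tek (-0.0171), Akap3 (0.0197), Lrig1 (-0.0144), Pcyox1 (0.0432), Ptpro (-0.0292), Rassf8 (0.0384), Tm7sf3 (-0.00927), Vamp8 (0.0203), Wbp11 (-0.0123), Wnk1 (0.000183). The other 10 kept their sign and did not pass either. The cause was not tested. No paired analysis was possible, since each animal had 1 array and the labels give no pairs of animals. Signal over background is unknown.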
